A study of Bos taurus with 36 samples.

Results

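The nuclear subunit genes of respiratory complex I were examined in the hearts, gonads, livers and maternal blood of 10 bovine pregnancies. They were taken as every protein-coding gene of the count table with a RefSeq symbol that starts with NDUFA, NDUFB, NDUFC, NDUFS or NDUFV followed by a number, without the NDUFAF assembly factors. This gave 38 genes of the 35092 in the table. By their place in the known structure, 10 belong to the N module, 6 to the Q module, 9 to the proximal and 11 to the distal part of the membrane arm, and 2 carry an NDUF name but lie outside the structure (NDUFA4 and NDUFA4L2). One member, NDUFA1 (Entrez 327673), a small membrane subunit, had 0 counts in all 36 libraries. By counting error alone this allows at most 0.165 CPM (counts scaled by library total to a standard depth) even in the shallowest library. Whether reads of this gene could be counted at all was not tested, so the 0 is no measure of its expression. NDUFA4L2 had 0 counts in all 10 blood libraries, so 37 members could be tested in the fetal organs and 36 in blood.

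Complex I is the entry point of electrons from NADH into the mitochondrial respiratory chain. Its N module oxidises NADH, its Q module passes the electrons through iron-sulfur clusters to ubiquinone, and its membrane arm pumps protons across the inner membrane. The core subunits of the peripheral arm and all accessory subunits are encoded in the nucleus, whereas the core of the membrane arm is encoded in mitochondrial DNA, and the complex is abundant in cardiac muscle.

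All fetuses were male, were taken on Day 42 of gestation and weighed 1.253 to 1.69 g; they are numbered here from 1, the lightest, to 10, the heaviest. Fetuses 1 to 5 came from heifers whose cycle stood at Day 7 when a Day 7 embryo was transferred (ET_D7, synchronous), and fetuses 6 to 10 from heifers whose cycle stood at Day 9 at transfer of such an embryo (ET_D9, asynchronous). There was no untreated group, and since each ET_D9 fetus was heavier than each ET_D7 fetus, fetal weight and transfer group cannot be told apart. There were 9 heart libraries (none of fetus 7), 9 libraries labelled gonads (none of fetus 2), 8 liver libraries (none of fetuses 6 and 7) and 10 libraries of maternal blood, 1 for each fetus and tissue. The blood is that of the heifer, not of the fetus.

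Library totals ran from 18231089 to 40812354 counts. The share of mitochondrially encoded counts was 2.14% to 3.29% in blood, 3.31% to 7.23% in the libraries labelled gonads, 16.3% to 36.8% in the liver and 17.1% to 57.3% in the heart. The 38 members together held a median of 0.568% of the counts on nuclear genes in the heart, 0.236% in the libraries labelled gonads, 0.267% in the liver and 0.122% in blood. All 10 cardiomyocyte markers were higher in every heart library than in any other organ library, and the same held for 10 of 10 hepatocyte and 8 of 8 erythroid markers in the liver. In the libraries labelled gonads, the median was under 1 CPM for 5 of 8 germ cell markers (DDX4 and DAZL among them), 5 of 7 Leydig cell markers and 3 of 9 Sertoli cell markers, while 8 of 10 mesonephros and kidney markers were above every heart and liver library. The same held for 2 of the 8 germ cell markers (KIT and PRDM1), 1 of the 9 Sertoli cell markers (CLDN11) and 0 of the 7 Leydig cell markers. The label is therefore kept, and no cell type is assigned to them.

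Some libraries matched others of the same tissue more closely than counting noise allows between separate libraries. The counts of fetuses 6 and 8 in the libraries labelled gonads stood in a ratio of 1.27, and the residual around that ratio was 0.0254 of the counting standard deviation over 14442 genes, against 1.87 in the next closest pair. Livers 1 and 2 differed by 0.506 of it, against 3.03 in the next closest pair. Liver 9 was matched by a weighted sum of livers 8 and 10 (residual 0.485, against at least 4.51 in the livers that no other library matched), and heart 1 by a weighted sum of hearts 2, 3, 4 and 5 (0.914, against at least 2.27). No blood library was matched (lowest residual 3.70). Of the counts above 0 and under 200, 80.7% to 84.2% were even numbers in the blood libraries. These shares were 52.4% to 61.9% in the heart, 53.3% to 65.2% in the libraries labelled gonads and 48.9% to 61.1% in the liver. The counting standard deviation was not adjusted for this, and its origin was not tested. Among the members, 34 of the 37 with counts lay within 1% of the ratio in the first pair, as did 89.7% of the 14442 genes. The other 3 were NDUFS1 (1535 counts in fetus 6 and 2037 in fetus 8), NDUFC2 (2092 and 2986) and NDUFA4L2 (28 and 0). The 2 close pairs differ by less than the sampling noise, so each was counted as 1 sample in the organ levels (n = 8 in the libraries labelled gonads and n = 7 in the liver). Heart 1 and liver 9, matched by weighted sums, were still counted as samples of their own there. Several results that changed without heart 1, gonads 8, liver 1 and liver 9 are also given without them. How the matches arose was not tested.

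**Figure D1:**
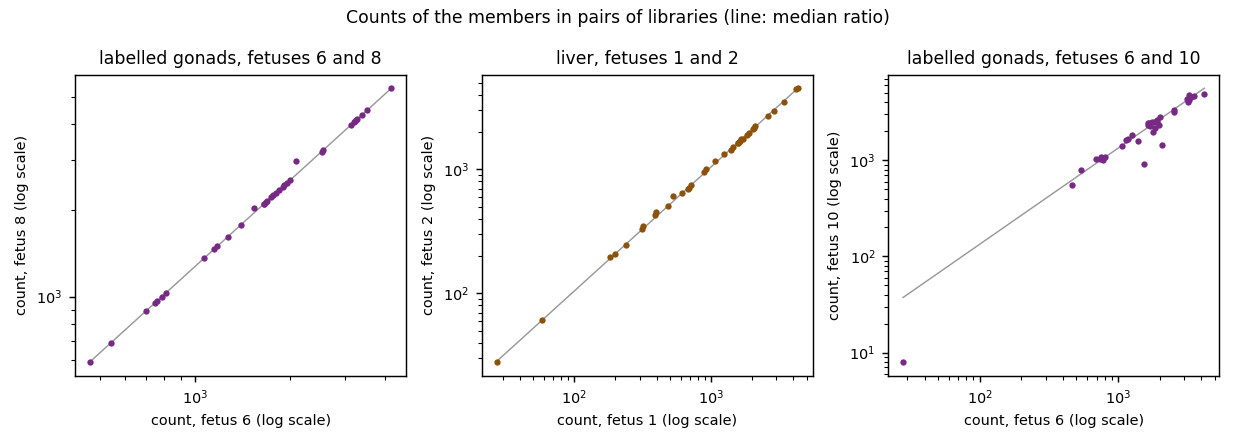
Counts of the members in library pairs gonads 6 and 8, livers 1 and 2 and, as a pair without a match, gonads 6 and 10, each point a gene, each line the median ratio, both axes logarithmic (NDUFA4L2, with 0 counts in fetus 8, is left out of the first panel). In the first panel, 34 of 37 members lie within 1% of the ratio 1.27 (89.7% of the 14442 genes compared), and NDUFS1 and NDUFC2 lie above the line.

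The comparison across organs asked in which fetal organ each subunit gene was most highly expressed. In edgeR's quasi-likelihood test over the 26 organ libraries, 28 of 37 members exceeded both other organs in the heart at an adjusted p-value under 0.05, as were 11.1% of all 25095 genes tested. One member, NDUFS1, was higher in the libraries labelled gonads (14.9% of all genes) and 1, NDUFB9, in the liver (23.1% of all genes). The remaining 7 (NDUFA10, NDUFB7, NDUFC2, NDUFS4, NDUFS6, NDUFV1 and NDUFV3) were not higher in any 1 organ than in both others. Against the liver, 32 members were higher in the heart (27.9% of all genes) and 1 was lower (30.7%), with a median log2 fold change of 1.07 where that of all genes was 0. Against the libraries labelled gonads, 33 were higher in the heart (23.5%) and 1 lower (23.1%), with a median of 1.66 against −0.08 for all genes. Between those libraries and the liver, 5 members were higher in the former (30.8%) and 22 in the latter (33.6%), with a median of −0.62 against 0. Bulk libraries cannot tell apart fewer cells of a type and less RNA per cell. Levels were not compared between members, because transcript lengths were not used here.

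**Figure D2:**
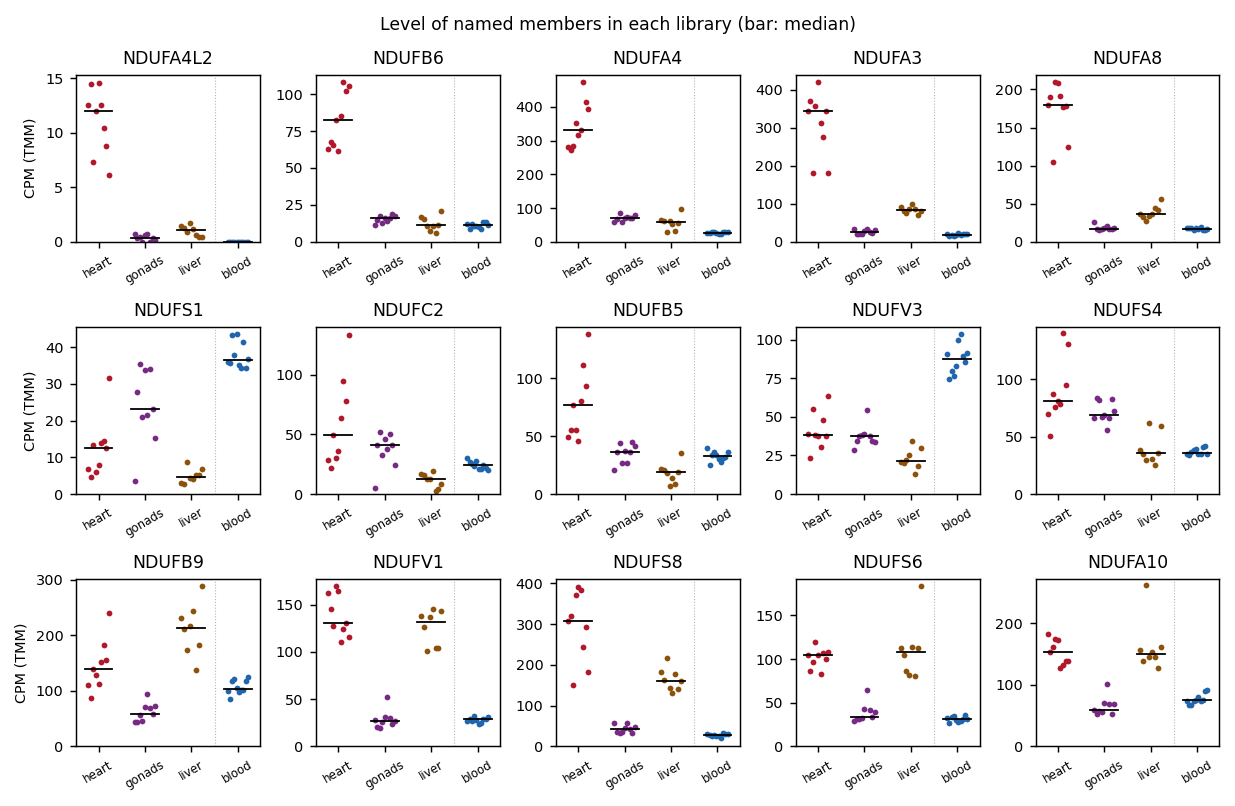
CPM of 15 members in every library (linear axes from 0), one panel per gene, with all libraries as points and a bar at their median; blood, right of the dotted line, was scaled on its own. In the top panels all heart libraries lie above the other organs, whereas NDUFS1 is highest under the gonads label and NDUFB9 in the liver (median 216 CPM with matched livers counted once).

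The peripheral arm starts with the N module, in which 5 of 10 members had their highest level in the heart. NDUFV1, the core subunit that binds NADH and the flavin, ran from 111 to 169.8 CPM (median 131) in the heart, from 19.3 to 52.0 CPM (median 26.4) in the libraries labelled gonads and from 100.5 to 145 CPM (median 133) in the liver. Heart and liver overlapped, and every library labelled gonads lay under both. Its log2 fold change was 0.16 (SE 0.151, adjusted p = 0.384) between heart and liver and −2.13 (SE 0.155, adjusted p = 1.30e-12) between the libraries labelled gonads and the liver, the lowest of the members in that contrast. NDUFV2, the other flavoprotein core subunit, which carries an iron-sulfur cluster, ran from 103 to 218 CPM (median 145) in the heart, from 52.3 to 69.6 CPM (median 58.9) in the libraries labelled gonads and from 47.1 to 99.5 CPM (median 63.0) in the liver. Each heart library was above every other organ library, and its difference from the liver was 1.11 (SE 0.139, adjusted p = 7.92e-08).

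NDUFS1, the largest core subunit of the peripheral arm, went against the rest. It ran from 4.56 to 31.6 CPM (median 12.4) in the heart, from 3.48 to 35.4 CPM (median 22.3) in the libraries labelled gonads and from 2.97 to 8.77 CPM (median 5.06) in the liver. The ranges overlapped in all 3 organs, and fetus 1 gave the lowest value labelled gonads. Its log2 fold change was −0.95 (SE 0.347, adjusted p = 0.0259) between heart and the libraries labelled gonads and 2.26 (SE 0.379, adjusted p = 7.90e-06) between the latter and the liver, the lowest and the highest of the members in these contrasts. The first call was lost without fetus 4 (log2 fold change −0.77, adjusted p = 0.094), 5, 6, 8 or 9, and without the matched libraries (−0.79, adjusted p = 0.090), while the second was kept there.

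Among the accessory subunits of the N module, NDUFS4, needed for a stable N module, was not separated between the heart (51.0 to 140.3 CPM, median 81.1) and the libraries labelled gonads (55.5 to 83.6 CPM, median 70.3), at 0.32 (SE 0.175, adjusted p = 0.132) on the log2 scale. The liver lay lower, from 25.1 to 62.2 CPM (median 36.003). NDUFV3, a small subunit at the tip of the arm, likewise overlapped between the heart (23.5 to 63.6 CPM, median 38.5) and the libraries labelled gonads (28.7 to 54.8 CPM, median 36.1), at 0.14 (SE 0.173, adjusted p = 0.523), with 12.7 to 34.5 CPM (median 21.9) in the liver. With library totals in place of TMM these 2 fold changes turned negative, while the median of all genes moved to −1.07. NDUFS6, a zinc-binding subunit, overlapped between the heart (82.98 to 119 CPM, median 104) and the liver (80.2 to 184 CPM, median 109), at −0.12 (SE 0.154, adjusted p = 0.539), and every library labelled gonads lay under both (29.4 to 64.0 CPM, median 32.9).

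The 4 other N-module accessory genes were higher in the heart. NDUFA12, a subunit that joins late in assembly, ran from 21.9 to 69.3 CPM (median 36.3) in the heart, from 11.6 to 19.1 CPM (median 16.0) in the libraries labelled gonads and from 4.05 to 26.3 CPM (median 12.0) in the liver. The lowest heart value lay above every library labelled gonads and within the liver range. NDUFA2, which has a thioredoxin-like fold, had 21.3 ± 4.90 CPM (SD, n = 9) in the heart, 10.7 ± 2.15 CPM (SD, n = 8) in the libraries labelled gonads and 13.0 ± 5.23 CPM (SD, n = 7) in the liver. For NDUFA6, a member of the LYR protein family, the heart mean was 109.5 ± 15.5 CPM (SD, n = 9) against 36.6 ± 3.13 CPM (SD, n = 8) and 73.2 ± 14.3 CPM (SD, n = 7) in the same order. For NDUFA7 these were 158 ± 40.4 CPM (SD, n = 9), 32.5 ± 8.32 CPM (SD, n = 8) and 74.2 ± 11.9 CPM (SD, n = 7). The smaller of the 2 fold changes of these genes lay between 0.56 (NDUFA6, over the liver) and 1.39 (NDUFA12, over the libraries labelled gonads).

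All 6 members of the Q module were called highest in the heart. NDUFS3, a core subunit that scaffolds the module, ran from 128 to 243 CPM (median 215) in the heart, from 44.0 to 80.3 CPM (median 54.9) in the libraries labelled gonads and from 89.5 to 129.9 CPM (median 117) in the liver. NDUFS7, which carries the last cluster before ubiquinone, ran from 80.4 to 122 CPM (median 108) in the heart, from 17.3 to 32.4 CPM (median 20.3) in the libraries labelled gonads and from 51.2 to 80.0 CPM (median 61.1) in the liver. Both had the order heart, liver, gonads label, and the log2 fold changes of the heart over the liver were 0.87 (SE 0.131, adjusted p = 1.69e-06) for NDUFS3 and 0.65 (SE 0.124, adjusted p = 5.54e-05) for NDUFS7.

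NDUFS8, the core subunit that carries the clusters between the N module and NDUFS7, was lower in the libraries labelled gonads than in the liver by more than all members but NDUFV1, −1.94 (SE 0.176, adjusted p = 1.33e-10). It ran from 151 to 393 CPM (median 308) in the heart, from 31.4 to 58.3 CPM (median 39.5) in the libraries labelled gonads and from 131 to 216 CPM (median 160.0) in the liver. The lowest heart value fell within the liver range, and the libraries labelled gonads were apart from both. The accessory members were NDUFA5, with 155 ± 24.6 CPM (SD, n = 9) in the heart, 40.4 ± 4.96 CPM (SD, n = 8) in the libraries labelled gonads and 56.6 ± 20.4 CPM (SD, n = 7) in the liver, and NDUFA9, a relative of short-chain dehydrogenases, with 109 ± 12.1 CPM (SD, n = 9), 42.0 ± 7.08 CPM (SD, n = 8) and 86.0 ± 13.8 CPM (SD, n = 7). NDUFA9 showed the smallest difference between heart and liver of the members called higher in the heart, 0.35 (SE 0.104, adjusted p = 0.00558).

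In the proximal membrane arm, 6 of the 8 members with counts were higher in the heart. NDUFA3, a small membrane subunit, ran from 181 to 419 CPM (median 343) in the heart, from 21.0 to 33.8 CPM (median 25.1) in the libraries labelled gonads and from 70.9 to 101 CPM (median 85.4) in the liver, and NDUFA8, an intermembrane-space subunit with disulfide bonds, ran from 105 to 209.9 CPM (median 180.1) in the heart, from 15.2 to 25.7 CPM (median 17.5) in the libraries labelled gonads and from 27.9 to 55.6 CPM (median 36.7) in the liver. For both genes all heart libraries were above all others. They had the highest log2 fold changes over the libraries labelled gonads within the structure, 3.54 (SE 0.159, adjusted p = 9.00e-17) and 3.24 (SE 0.147, adjusted p = 9.92e-17). NDUFA11, a membrane subunit, had 98.4 ± 12.5 CPM (SD, n = 9) in the heart, 24.4 ± 4.78 CPM (SD, n = 8) in the libraries labelled gonads and 40.4 ± 7.24 CPM (SD, n = 7) in the liver. The means were 136 ± 38.7 CPM (SD, n = 9), 36.1 ± 11.8 CPM (SD, n = 8) and 58.0 ± 16.6 CPM (SD, n = 7) for NDUFA13, also known as GRIM19. NDUFS5, another disulfide-bonded subunit, had 285 ± 77.2 CPM (SD, n = 9) in the heart, 72.04 ± 11.6 CPM (SD, n = 8) in the libraries labelled gonads and 202 ± 35.8 CPM (SD, n = 7) in the liver, and NDUFC1, a small membrane subunit, had 31.5 ± 8.93 CPM (SD, n = 9), 18.4 ± 3.55 CPM (SD, n = 8) and 17.9 ± 8.15 CPM (SD, n = 7).

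The 2 proximal members not called were NDUFA10 and NDUFC2. NDUFA10, which has the fold of a nucleoside kinase, ran from 128 to 182 CPM (median 153) in the heart, from 52.8 to 101 CPM (median 58.3) in the libraries labelled gonads and from 126 to 261 CPM (median 147) in the liver. Heart and liver overlapped, at −0.070 (SE 0.137, adjusted p = 0.699), and the libraries labelled gonads lay below. NDUFC2, a membrane subunit needed for assembly of the membrane arm, ran from 21.98 to 134 CPM (median 49.8) in the heart, from 4.70 to 51.7 CPM (median 39.3) in the libraries labelled gonads and from 2.36 to 19.1 CPM (median 12.7) in the liver. Heart and libraries labelled gonads overlapped widely, as for NDUFS1. The log2 fold change was 0.70 (SE 0.384, adjusted p = 0.136) between heart and the libraries labelled gonads and 1.65 (SE 0.412, adjusted p = 0.00103) between the latter and the liver. Fetus 1 held the lowest value labelled gonads for NDUFC2 as for NDUFS1.

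In the distal membrane arm, 9 of 11 members were higher in the heart. NDUFB6, a membrane subunit, had the second highest log2 fold change over the liver, 2.74 (SE 0.207, adjusted p = 3.34e-12). It ran from 61.3 to 108 CPM (median 82.6) in the heart, from 11.1 to 19.0 CPM (median 15.5) in the libraries labelled gonads and from 5.73 to 20.9 CPM (median 10.9) in the liver, and all heart libraries were above all others. NDUFB9, a LYR-family subunit, was the only member lower in the heart than in the liver, at −0.53 (SE 0.180, adjusted p = 0.0128). It ran from 87.3 to 239.9 CPM (median 139.9) in the heart, from 44.0 to 93.3 CPM (median 57.5) in the libraries labelled gonads and from 138 to 289 CPM (median 216) in the liver, so that heart and liver overlapped and the libraries labelled gonads lay mostly under the heart. The call in the liver was lost with library totals (log2 fold change −0.50, adjusted p = 0.0874).

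NDUFB7, a disulfide-bonded subunit of the intermembrane space, was not separated between heart (91.4 to 138 CPM, median 126) and liver (72.6 to 128 CPM, median 97.1), at 0.28 (SE 0.129, adjusted p = 0.0661), with 29.0 to 57.6 CPM (median 34.1) in the libraries labelled gonads. NDUFB5, a single-pass membrane subunit, ran from 45.3 to 138 CPM (median 76.7) in the heart, from 21.2 to 45.2 CPM (median 36.2) in the libraries labelled gonads and from 7.13 to 35.7 CPM (median 17.9) in the liver. Here the liver was the lowest organ, and the libraries labelled gonads exceeded it by 0.95 (SE 0.260, adjusted p = 0.00234), the third highest of the members in that contrast.

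The other distal members were each higher in the heart than in both organs. NDUFB8, a membrane subunit, had 259 ± 32.2 CPM (SD, n = 9) in the heart, 75.9 ± 8.37 CPM (SD, n = 8) in the libraries labelled gonads and 79.7 ± 10.96 CPM (SD, n = 7) in the liver, and NDUFB10, a subunit with disulfide bonds, had 215 ± 24.0 CPM (SD, n = 9), 66.1 ± 20.6 CPM (SD, n = 8) and 102 ± 15.7 CPM (SD, n = 7). NDUFB1 had 97.0 ± 13.2 CPM (SD, n = 9), 14.8 ± 2.12 CPM (SD, n = 8) and 25.9 ± 7.56 CPM (SD, n = 7). The heart mean of all 3 was above the means of the other organs by more than both standard deviations. The corresponding means were 36.3 ± 8.65 CPM (SD, n = 9), 10.1 ± 1.17 CPM (SD, n = 8) and 16.4 ± 7.88 CPM (SD, n = 7) for NDUFB2 and 43.5 ± 5.48 CPM (SD, n = 9), 25.4 ± 2.96 CPM (SD, n = 8) and 22.3 ± 8.98 CPM (SD, n = 7) for NDUFB3. For NDUFB4 they were 94.2 ± 13.7 CPM (SD, n = 9), 37.2 ± 6.04 CPM (SD, n = 8) and 45.5 ± 10.2 CPM (SD, n = 7). NDUFB11, a membrane subunit encoded on the X chromosome, was the most variable of the members in the heart, with 25.2 to 176 CPM (median 63.7) there, 21.6 to 49.2 CPM (median 34.2) in the libraries labelled gonads and 22.5 to 63.9 CPM (median 35.1) in the liver. Its ranges overlapped, and the log2 fold changes of the heart were 0.88 (SE 0.296, adjusted p = 0.0131) over the liver and 1.03 (SE 0.285, adjusted p = 0.00377) over the libraries labelled gonads.

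The 2 genes outside the structure were both higher in the heart. NDUFA4, now assigned to cytochrome c oxidase (complex IV), ran from 271 to 473 CPM (median 332) in the heart, from 58.0 to 85.5 CPM (median 71.2) in the libraries labelled gonads and from 30.3 to 98.2 CPM (median 57.1) in the liver, with log2 fold changes of 2.59 (SE 0.180, adjusted p = 5.01e-13) over the liver and 2.29 (SE 0.170, adjusted p = 4.53e-12) over the libraries labelled gonads. NDUFA4L2, its paralog and a known target of hypoxia-inducible factors, ran from 6.09 to 14.6 CPM (median 12.0) in the heart, from 0 to 0.756 CPM (median 0.349) in the libraries labelled gonads and from 0.451 to 1.69 CPM (median 0.883) in the liver. Its counts per library were 157 to 306 in hearts, 7 to 37 in livers and 0 to 36 under the gonads label, so all heart libraries were above all others although the lower 2 organs rest on few counts. Its log2 fold changes were the highest of the members against both organs, 3.44 (SE 0.588, adjusted p = 1.23e-05) over the liver and 4.89 (SE 0.597, adjusted p = 8.23e-08) over the libraries labelled gonads.

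**Figure D3:**
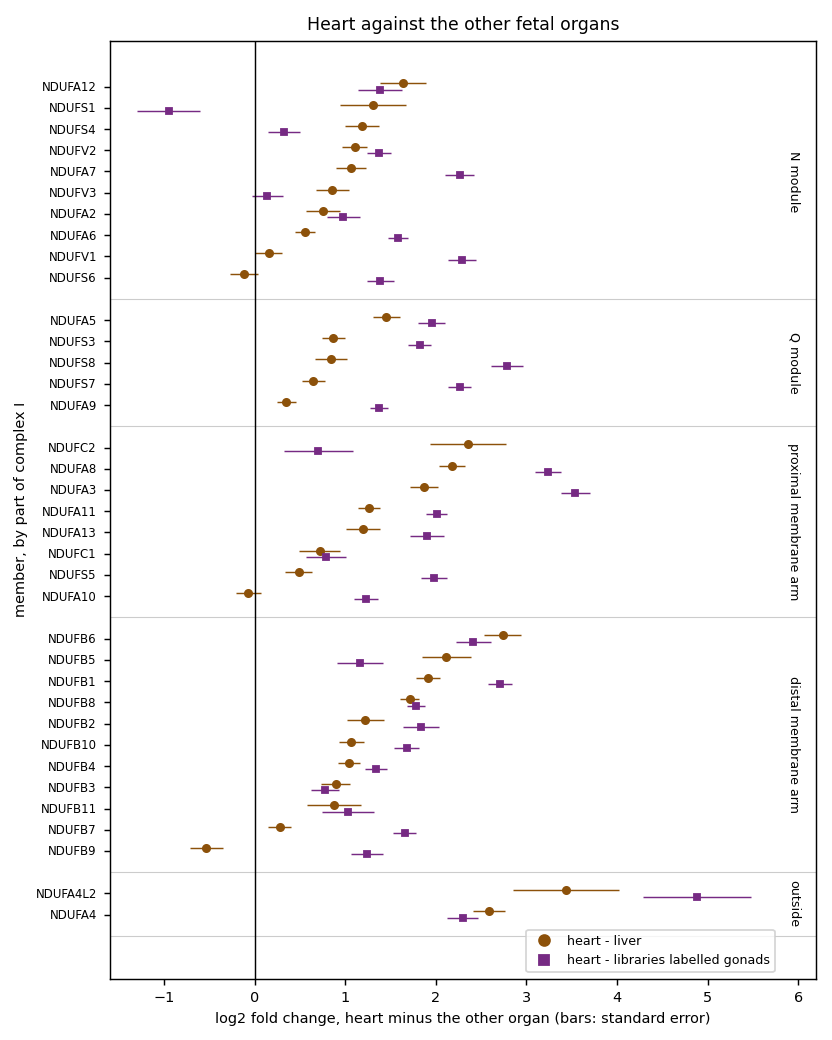
Log2 fold change of 36 members between heart and liver and between heart and the libraries labelled gonads, with standard errors, grouped by module. Most points lie above 0 in both contrasts, with NDUFB9 lowest against the liver (−0.53) and NDUFS1 lowest against the libraries labelled gonads (−0.95).

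How many members were called depended on the size required and on the scaling. Where both log2 fold changes had to exceed 1, 18 members were called for the heart (6.32% of all genes) and library totals gave 19 for the heart (4.67%). Library totals also turned the median between the libraries labelled gonads and the liver from −0.62 to 0.39, where the median of all genes moved from 0 to 0.91. Without the 4 matched libraries 28 members were called for the heart (10.3%), 1 for the liver (21.8%) and none for the libraries labelled gonads (13.6%).

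Other gene lists were taken for comparison, with counts only, beside 11.1%, 14.9% and 23.1% of all genes called highest in the heart, the libraries labelled gonads and the liver. Of 43 nuclear subunits of complexes II to V, 35 were called for the heart, 0 for the libraries labelled gonads and 3 for the liver. In the same order, the calls were 21, 4 and 21 of 76 mitochondrial ribosomal proteins, 14, 1 and 24 of 82 cytosolic ribosomal proteins, and 3, 5 and 1 of 14 mitochondrial biogenesis regulators. The complex I assembly factors, which help to build the complex but are not part of it, gave 2 of 18 for the heart, 2 for the libraries labelled gonads and 7 for the liver. Of the 7 mitochondrially encoded complex I genes 6 were called highest in the heart and none in another organ, with a median log2 fold change of 1.35 over the liver and 4.14 over the libraries labelled gonads. NDUFAB1, the acyl carrier protein that is also a complex I subunit but falls outside the naming rule, was higher in the heart by 1.49 and 1.13. None of these lists was tested against the members.

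In maternal blood, scaled on its own, the members ranged little between heifers. The median standard deviation of their log2 CPM was 0.17, against 0.29 for all genes, while it was 0.33 against 0.36 in the heart, 0.29 against 0.31 in the libraries labelled gonads and 0.40 against 0.47 in the liver. The highest standard deviation was that of NDUFA12 in blood (0.29), NDUFB11 in the heart (0.88), NDUFA4L2 in the libraries labelled gonads (1.46) and NDUFC2 in the liver (1.15). Core subunits in blood ran from 34.3 to 43.6 CPM (median 36.4) for NDUFS1 and from 23.8 to 31.7 CPM (median 28.6) for NDUFV1. For both genes the highest heifer was less than 1.5 times the lowest. NDUFV2 ran from 53.3 to 67.3 CPM (median 61.2), NDUFS3 from 19.7 to 27.2 CPM (median 22.9), NDUFS7 from 15.2 to 22.7 CPM (median 17.7) and NDUFS8 from 20.6 to 32.4 CPM (median 27.4). Of the accessory members, NDUFV3 ran from 74.2 to 104 CPM (median 87.4), NDUFB9 from 85.9 to 125 CPM (median 104) and NDUFS4 from 34.2 to 41.9 CPM (median 35.9). NDUFA4 ran from 23.8 to 29.7 CPM (median 27.6), while NDUFA4L2 was at 0 in every heifer.

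The trend with fetal weight asked which subunit genes were expressed at higher or lower levels in heavier fetuses. Within each tissue, the slope of log2 expression on fetal weight, per 0.1 g, was tested for every gene with edgeR's quasi-likelihood test. CPM given with a weight trend were scaled within each tissue, so those of the organs differ from the organ levels above. In the heart, 12 of 37 members rose with fetal weight at an adjusted p-value under 0.05 (5.23% of all 16250 genes) and none fell (1.54%). At an unadjusted p under 0.05, 16 members had a positive slope (16.4%) and 3 a negative one (12.7%), and DESeq2 called 16 rising (14.5% of the genes it tested) and none falling. The median slope of the members was 0.026 against −0.014 for all genes, with 22 of 37 slopes positive and 15 negative. The slopes ran from −0.19 (NDUFA4L2) to 0.49 (NDUFC2). By module, 2 of 10 members rose in the N module, 3 of 8 in the proximal and 5 of 11 in the distal membrane arm, and NDUFA4 of the 2 genes outside the structure. Without fetus 1, the heart library matched by others, none of the 12 passed (smallest adjusted p = 0.12), while 15 positive slopes had an unadjusted p under 0.05 (13.0% of all genes) and the median slope was 0.032.

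In the N module of the heart, NDUFS1 ran from 3.605 CPM in fetus 2 to 23.9 CPM in fetus 10 (median 9.64) on the scale of the heart libraries alone. Fetus 10 stood far above the others, and the ET_D7 and ET_D9 hearts overlapped. The slope was 0.41 (SE 0.102, adjusted p = 0.0443). NDUFS4 ran from 40.3 CPM in fetus 2 to 106 CPM in fetus 8 (median 61.1), overlapping between the groups, with a slope of 0.23 (SE 0.0544, adjusted p = 0.0426).

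In the membrane arm, the steepest slopes were those of NDUFC2 and NDUFB11. NDUFC2 ran from 17.4 CPM in fetus 2 to 101 CPM in fetus 10 (median 38.2), with 17.4 to 38.2 CPM in the ET_D7 and 48.9 to 101 CPM in the ET_D9 hearts. NDUFB11 ran from 19.9 CPM in fetus 2 to 134 CPM in fetus 10 (median 48.9), with 19.9 to 48.9 and 56.1 to 134 CPM. Neither gene overlapped between the groups, and the slopes were 0.49 (SE 0.0760, adjusted p = 0.0395) for NDUFC2 and 0.48 (SE 0.0821, adjusted p = 0.0395) for NDUFB11. NDUFB5 ran from 34.1 CPM in fetus 5 to 104 CPM in fetus 10 (median 58.9), also without overlap (34.1 to 58.9 against 61.3 to 104 CPM), and its slope was 0.30 (SE 0.0582, adjusted p = 0.0395).

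The other 6 rising members were flatter. NDUFB9 ran from 69.0 CPM in fetus 2 to 182 CPM in fetus 10 (median 107) with a slope of 0.23 (SE 0.0485, adjusted p = 0.0395). NDUFC1 ran from 17.0 CPM in fetus 2 to 37.3 CPM in fetus 10 (median 24.4) with a slope of 0.21 (SE 0.0430, adjusted p = 0.0395). NDUFA13 ran from 64.8 CPM in fetus 2 to 157 CPM in fetus 10 (median 105) with a slope of 0.21 (SE 0.0474, adjusted p = 0.0418). For these 3 members of the membrane arm the highest heart was fetus 10 and the lowest fetus 2. The slopes were 0.19 for NDUFB2 (18.8 to 26.3 CPM in the ET_D7 and 27.6 to 37.6 in the ET_D9 hearts), 0.18 for NDUFB6 (46.2 to 61.7 and 65.4 to 82.0 CPM) and 0.15 for NDUFA4 (214 to 263 and 254 to 359 CPM). Only NDUFA4 of these 3 overlapped between the groups. A further 4 members had positive slopes with an unadjusted p under 0.05 that did not pass the adjustment, 0.15 (SE 0.0427, unadjusted p = 0.00465, adjusted p = 0.0561) for the core subunit NDUFV2, 0.21 for NDUFA12, 0.15 for NDUFA2 and 0.084 for NDUFB3.

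Negative slopes in the heart reached an unadjusted p under 0.05 in 3 members, and none passed the adjustment. NDUFA4L2 ran from 4.61 CPM in fetus 10 to 11.4 CPM in fetus 2 (median 8.99), with a slope of −0.19 (SE 0.0718, unadjusted p = 0.0238, adjusted p = 0.115). NDUFS5 ran from 132 CPM in fetus 10 to 318 CPM in fetus 2 (median 209.8), with a slope of −0.17 (SE 0.0690, unadjusted p = 0.0370, adjusted p = 0.144). The groups overlapped for both genes, and the heaviest heart held the lowest value. NDUFA10 ran from 97.8 CPM in fetus 6 to 138 CPM in fetus 1 (median 121), with a slope of −0.084 (SE 0.0360, unadjusted p = 0.0414, adjusted p = 0.154). Its ET_D9 hearts held 97.8 to 107 CPM, all under the ET_D7 hearts at 121 to 138 CPM. With library totals the slope of NDUFA10 was 0.050, where the median of all genes moved to 0.12.

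**Figure D4:**
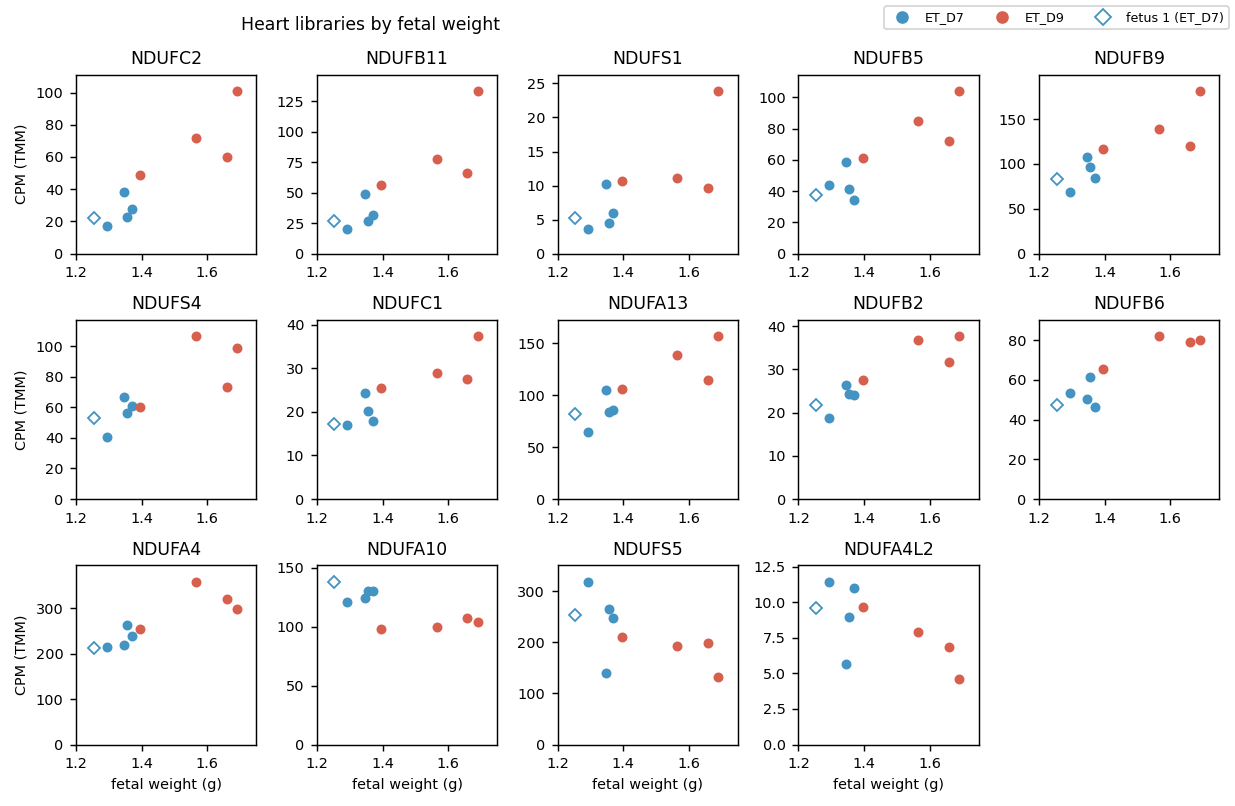
CPM of 11 of the 12 members that rose with fetal weight in the heart and of NDUFA10, NDUFS5 and NDUFA4L2 (scaled over the heart libraries, linear axes from 0) against fetal weight in g, one panel per gene and one point per heart, coloured by transfer group, with fetus 1 as an open diamond. In NDUFC2, NDUFB11 and NDUFB5 all ET_D9 hearts lie above all ET_D7 hearts, and in NDUFA10 all lie below.

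The heart result depended on single libraries. The adjusted p-values of the 12 rising members lay between 0.0395 and 0.0494. Their count was 0 without fetus 1, 2, 4, 5, 8 or 10, and it was 15 without fetus 3 (14.8% of all genes, with 3 members and 10.0% of all genes falling), 9 without fetus 6 (3.89%) and 14 without fetus 9 (7.96%). It was 0 with library totals, where the median slope was 0.17 for the members and 0.12 for all genes, and 24 members were positive at an unadjusted p under 0.05 (26.5% of all genes). It was also 0 with transfer group as a covariate, where 3 had such a p (1.54%).

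Other measures were also set beside fetal weight in the same hearts. The share of mitochondrially encoded counts was 23.5% to 57.3% in the ET_D7 and 17.1% to 39.0% in the ET_D9 hearts. The 7 mitochondrially encoded complex I genes, which form the core of the membrane arm, all had negative slopes with an unadjusted p under 0.05, from −0.43 (ND3) to −0.33 (ND2), and none passed the adjustment with edgeR, whereas DESeq2 called 6. The summed level of 6 endothelial markers was 298 to 382 CPM of nuclear counts in the ET_D7 and 386 to 494 in the ET_D9 hearts. Of these markers 2 (CDH5 and PECAM1) rose at an adjusted p under 0.05, as did 5.23% of all genes. The 10 cardiomyocyte markers summed to 51586 to 60906 and 48168 to 58139, and none had an unadjusted p under 0.05. The 7 fibroblast and smooth muscle markers summed to 2372 to 4969.5 and 3023 to 4426, with a median slope of 0.10. Of these 3 had a positive slope at an unadjusted p under 0.05, as had 16.4% of all genes. The part of these measures in the slopes of the members was not tested. Genes of other lists also rose in the heart at an adjusted p under 0.05, beside 5.23% of all genes. They were 16 of 43 subunits of complexes II to V, 6 of 76 mitochondrial and 21 of 82 cytosolic ribosomal proteins, 3 of 18 assembly factors and 1 of 14 biogenesis regulators. Of the assembly factors, 1 (COA1) fell, beside 1.54% of all genes.

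In the libraries labelled gonads no member passed the adjustment, with edgeR or DESeq2. At an unadjusted p under 0.05 there were 2 positive slopes (2.38% of all 17809 genes) and none negative (3.24%), and DESeq2 gave 4. The median slope was 0.058 against −0.0030 for all genes, with 29 of 37 positive. With transfer group as a covariate the median was −0.055 against 0.013 for all genes, with 17 of 37 positive. Without the matched library of fetus 8, 1 member had a positive slope at an unadjusted p under 0.05, as had 353 of all 17688 genes. NDUFB11 ran from 33.3 CPM in fetus 1 to 80.8 CPM in fetus 7 (median 54.6), with a slope of 0.17 (SE 0.0740, unadjusted p = 0.0463, adjusted p = 0.849), and NDUFA2 ran from 12.7 CPM in fetus 1 to 21.5 CPM in fetus 9 (median 17.4), with a slope of 0.13 (SE 0.0499, unadjusted p = 0.0226, adjusted p = 0.849). Fetus 1 held the lowest value of both genes. NDUFB6 followed with 0.11 (SE 0.0510, unadjusted p = 0.0547, adjusted p = 0.849). The most negative by p were NDUFB8, at −0.040 (SE 0.0371, unadjusted p = 0.303, adjusted p = 0.922), NDUFA4L2, at −0.31 (SE 0.375, unadjusted p = 0.429, adjusted p = 0.940), and NDUFA8, at −0.042 (SE 0.0515, unadjusted p = 0.439, adjusted p = 0.941). NDUFB8 ran from 106 CPM in fetus 7 to 143 CPM in fetus 1 (median 123), NDUFA4L2 from 0 to 1.195 CPM, and NDUFA8 from 24.3 CPM in fetus 4 to 39.6 CPM in fetus 1 (median 28.9), each with overlap between the transfer groups.

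NDUFC2 and NDUFS1 were lowest in the lightest fetus in the libraries labelled gonads. NDUFC2 was at 7.24 CPM in fetus 1 and at 39.2 to 83.6 CPM in the others, and NDUFS1 at 5.37 and 24.4 to 57.0 CPM. For both genes fetus 1 was the lowest and fetus 10, the heaviest, the next lowest. The smooth curve of weight (natural spline, 3 degrees of freedom) had an unadjusted p of 0.00181 for NDUFC2 and 0.00284 for NDUFS1, with adjusted p of 0.184 and 0.202. Both passed the adjustment without the library of fetus 8, as did 7.17% of all genes. No test compared the curve with a line.

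In the liver no member passed the adjustment for a linear slope (0.44% of all genes rose and 1.79% fell), while DESeq2 called 1 falling (6.66% of all genes). At an unadjusted p under 0.05 there were 2 positive (5.97% of all 16605 genes) and 2 negative slopes (11.2%), and the median slope was 0.0050 against −0.010. NDUFC2 was the member called by DESeq2. It held 10.7 to 15.3 CPM in fetuses 1 to 5 and 1.61, 3.78 and 6.14 CPM in fetuses 8, 9 and 10. Of these, liver 9 was matched by a weighted sum of livers 8 and 10, so it is not a separate value. The transfer groups did not overlap for NDUFC2, and its slope was −0.43 (SE 0.144, unadjusted p = 0.0143, adjusted p = 0.153). The sign of this slope was opposite to that in the heart, but with transfer group as a covariate the liver slope was 0.63. In that fit the median slope of the members was 0.26 against 0.041 for all genes, and 33 of 37 were positive.

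Some markers of several cell types had weight slopes with an unadjusted p under 0.05 in these livers. Of all genes, 11.2% had such a negative slope and 5.97% such a positive one. Such negative slopes were found for 3 of 7 leukocyte markers tested (S100A9 also passed the adjustment), 2 of 6 endothelial, 2 of 10 hepatocyte and 2 of 7 cardiomyocyte markers. Of the cardiomyocyte markers, 1 other had a positive slope. In CPM of nuclear counts, the leukocyte markers summed to 104 to 164 in the ET_D7 and 84.9 to 132 in the ET_D9 livers, and the endothelial markers to 77.8 to 97.4 and 70.3 to 91.8. The hepatocyte markers summed to 40605 to 62327 and 38409 to 64214, and the cardiomyocyte markers to 39.8 to 2232 and 31.6 to 164. The transfer groups overlapped in each of these sums. The part of these markers in the result for NDUFC2 was not tested.

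NDUFA4L2 also had a negative slope in the liver, −0.43 (SE 0.171, unadjusted p = 0.0304, adjusted p = 0.229), with 0.745 to 1.47 CPM in the ET_D7 and 0.341 to 0.460 CPM in the ET_D9 livers. The positive slopes were those of NDUFA8, 0.12 (SE 0.0420, unadjusted p = 0.0160, adjusted p = 0.162), and NDUFB2, 0.25 (SE 0.103, unadjusted p = 0.0383, adjusted p = 0.254). NDUFA8 ran from 23.5 CPM in fetus 3 to 41.4 CPM in fetus 10 (median 29.4), and NDUFB2 from 7.32 CPM in fetus 2 to 23.9 CPM in fetus 10 (median 12.7). Fetus 10 was the highest liver for both genes. NDUFA2 ran from 7.08 CPM in fetus 5 to 17.1 CPM in fetus 10 (median 7.93) (slope 0.17, unadjusted p = 0.0947) and NDUFA3 from 58.7 CPM in fetus 9 to 80.6 CPM in fetus 5 (median 65.0) (slope −0.065, unadjusted p = 0.125). Without livers 1 and 9, no member had an unadjusted p under 0.05, and without fetus 10 the median slope was −0.060 with 9 positive.

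In maternal blood no member passed the adjustment, with edgeR or DESeq2. At an unadjusted p under 0.05 there were 2 positive (4.53% of all 16284 genes) and 1 negative slope (5.16%), and the median slope was 0.034 against 0.0018. NDUFB11 ran from 17.8 CPM in fetus 2 to 28.2 CPM in fetus 8 (median 20.9), with a slope of 0.12 (SE 0.0367, unadjusted p = 0.00772, adjusted p = 0.411). NDUFA10 ran from 66.2 CPM in fetus 2 to 91.4 CPM in fetus 10 (median 74.3), with a slope of 0.079 (SE 0.0257, unadjusted p = 0.01004, adjusted p = 0.413). NDUFC2 ran from 19.7 CPM in fetus 10 to 30.2 CPM in fetus 1 (median 24.0), with a slope of −0.097 (SE 0.0335, unadjusted p = 0.0136, adjusted p = 0.422). The transfer groups overlapped for all 3 genes. NDUFB8 had a slope of 0.045 (unadjusted p = 0.0876), NDUFA5 of −0.049 (unadjusted p = 0.421) and NDUFA8 of −0.029 (unadjusted p = 0.433). All slopes of the members in blood lay between −0.097 (NDUFC2) and 0.12 (NDUFB11). The 10 cardiomyocyte markers summed to 3.24 to 3702 CPM in blood (median 4.94). The 7 fibroblast and smooth muscle markers summed to 23.8 to 534 CPM (median 46.1). There were 2 positive slopes and 1 negative slope at an unadjusted p under 0.05 without the blood libraries of fetuses 2 and 5. Among all 15836 genes, 436 and 464 had such slopes. The median slope of the members was then 0.025. The part of these markers in the slopes was not tested.

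**Figure D5:**
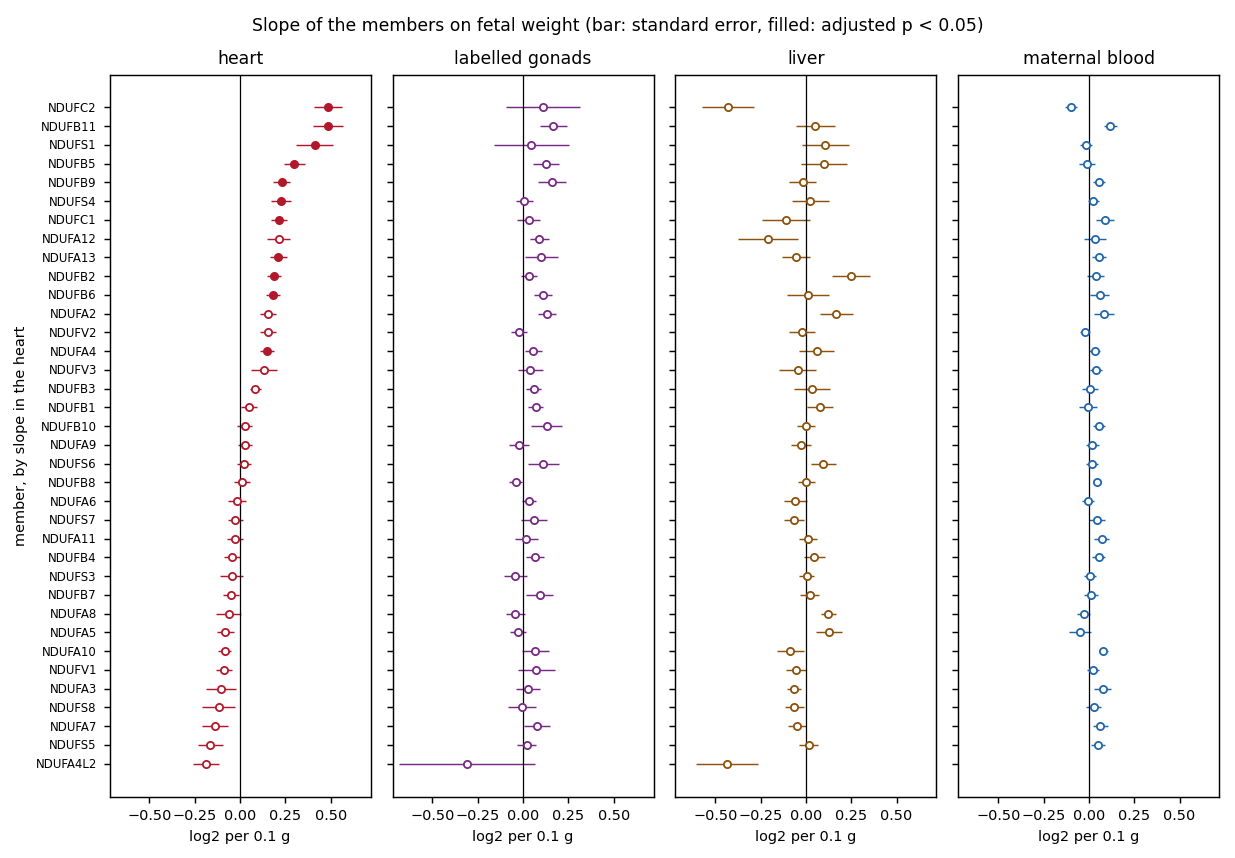
Slope of log2 CPM per 0.1 g of fetal weight for 36 members in each tissue, in the order of the heart slopes, with standard errors as bars and filled points where the adjusted p-value is under 0.05. Filled points occur in the heart alone, where slopes reach 0.49 (NDUFC2), while NDUFC2 lies at −0.43 in the liver and −0.097 in blood.

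Whether the slopes differed between tissues was tested in 1 fit over all 36 libraries, for the 36 members with enough counts in every tissue and for 6 pairs of tissues. Between heart and liver, 5 members had a higher slope in the heart (7.93% of all 13443 genes) and none a lower one (2.51%). The difference was 0.94 (SE 0.182, adjusted p = 6.54e-04) for NDUFC2, 0.44 (SE 0.118, adjusted p = 0.0121) for NDUFB11, 0.43 (SE 0.138, adjusted p = 0.0396) for NDUFA12 and 0.26 (SE 0.0841, adjusted p = 0.0449) for NDUFB9. NDUFC2 and NDUFA12 had slopes of opposite sign in the 2 organs, 0.49 and −0.43 for NDUFC2 and 0.21 and −0.21 for NDUFA12, of which only that of NDUFC2 in the heart passed the adjustment. NDUFA12 ran from 17.3 CPM in fetus 2 to 52.4 CPM in fetus 10 (median 27.1) in the heart and from 2.76 CPM in fetus 8 to 22.1 CPM in fetus 3 (median 9.43) in the liver.

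Between heart and blood, 1 member had a higher slope in the heart (1.47% of all genes). No member differed in the other 4 pairs at an adjusted p under 0.05, where 6, 4, 0 and 3 members had an unadjusted p under 0.05 between heart and gonads, gonads and liver, gonads and blood, and liver and blood, against 10.2%, 15.9%, 4.88% and 19.0% of all genes. Without the 4 matched libraries 1 member differed between heart and liver (453 of all 13137 genes) and none between heart and blood (2 genes). With each fetus as a block 5 members, NDUFA13 among them, differed between heart and liver (1281 of all 13443 genes). In that fit none differed between heart and blood (85 genes).

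With a spline of fetal weight in place of a line, no member of the heart passed the adjustment, and 12 had an unadjusted p under 0.05 (7.99% of all genes). In the libraries labelled gonads 8 did (12.6%), in the liver 16 (17.9%) and in blood 1, NDUFA10 (9.77%). Only NDUFC2 in the liver passed the adjustment (adjusted p = 0.0352; 1.81% of all genes), and it did not without livers 1 and 9, where 5 members had an unadjusted p under 0.05.

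The transfer groups ET_D9 and ET_D7 were compared in each tissue, which splits the fetuses into the heavier and the lighter 5. NDUFC2 in the liver differed between ET_D9 and ET_D7 by −1.73 on the log2 scale (SE 0.394, adjusted p = 0.0424), as were 3.64% of all genes, and it was the only member to pass. At an unadjusted p under 0.05, 1 member was higher in ET_D9 (5.62%) and 2 lower (11.7%) in the liver. The call was lost without livers 1 and 9 and in 6 of the 8 fits that left out 1 liver. In the heart 16 members had an unadjusted p under 0.05 (14 higher and 2 lower in ET_D9, the latter NDUFA10 and NDUFV1, against 14.6% and 9.98% of all genes), with NDUFC2 at 1.46 (adjusted p = 0.0638), and none passed the adjustment with edgeR (0.0369% and 0.0123% of all genes), whereas DESeq2 called 12 higher and 2 lower (14.2% of all genes in either direction). In the libraries labelled gonads 9 members had such a p, all higher in ET_D9 (8.46% of all genes), from 0.35 on the log2 scale for NDUFA2 to 0.63 for NDUFB9, none passed the adjustment with edgeR (0.135% higher and 0.219% lower), and DESeq2 called NDUFB9, NDUFB10 and NDUFB11 (5.28% of all genes). In blood 4 did, NDUFA10, NDUFA3 and NDUFV3 higher (3.47%) and NDUFC2 lower (4.13%), and none was called by either tool.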

How the data were processed

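The authors discarded 4 samples of low RNA quality before library preparation. Per the labels and the study's methods, they used FastQC 0.11.9, Trimmomatic, STAR 2.7.0b and featureCounts (Subread 2.0.3), with genome ARS-UCD1.3, and they deposited raw read counts per Entrez gene; options for strand and multimapping are not given in the sources used here. Of 35092 identifiers, 31630 matched a RefSeq symbol (assembly ARS-UCD2.0, used for names only). Heart, gonads and liver libraries were poly(A) selected with one kit (TruSeq stranded mRNA), and blood libraries were made with another (SMARTer Stranded RNA). Blood levels were therefore not compared with those of the organs.

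CPM were scaled by TMM. Genes with at least 1 count in any of 26 organ libraries entered the organ fit, and genes with at least 10 counts in 4 libraries the weight fits, each tissue alone. The tests were edgeR 4.0.16 quasi-likelihood tests (R 4.3.3) with Benjamini-Hochberg adjustment over all genes, and the alternatives included DESeq2 1.42.0, other scalings and filters, left-out libraries and a block. The organ fit used all 26 libraries, matched ones included. The scripts were tested on simulated data. By the labels, replicates are separate fetuses or heifers, but the matched libraries were closer than counting noise allows between separate libraries. The main fits kept the matched libraries as separate replicates. Totals of 18231089 to 40812354 counts set the precision, and the floor of 3 counts covers counting error only.

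The numbering pairs organs of the same fetus, as the labels give it by weight. Deviations from tissue means correlated at −0.40 to 0.46 over 23 pairs of libraries of one fetus (median 0.052, 7 over 0.1, 12066 genes).

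The members and gene lists were chosen with earlier results of these data known. One member entered all fits and counts, and its own values are not reported here. Members named for an organ contrast are the 3 highest and 3 lowest, with the core subunits, NDUFA4 and NDUFA4L2, and those named for a weight trend are all called plus the 3 of each sign with the smallest p-values; the others give levels only, and NDUFA10 in the heart, NDUFA12 and the curve of NDUFC2 and NDUFS1 in the libraries labelled gonads were named after their values were seen.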

Additional observations from a re-analysis of the deposited data

Results flagged for a closer look

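In groups of 7 to 10 libraries, 12 of 147 had a highest or lowest value far from the rest by Dixon's criterion. The criterion flags about 1 in 20 groups of independent values by chance. The groups share the same libraries, so the 12 cannot be set against that rate. These CPM were scaled within each tissue, so those of the organs differ from the organ levels above. In the libraries labelled gonads, fetus 7 was the highest for 7 members, with 166 CPM of NDUFA10, 104 CPM of NDUFA13, 178 CPM of NDUFB10, 105 CPM of NDUFS6, 53.3 CPM of NDUFS7, 85.4 CPM of NDUFV1 and 90.0 CPM of NDUFV3. The next highest values were 115, 65.8, 126, 70.0, 38.4, 49.9 and 63.2 CPM. In the liver, fetus 3 stood out with 220.3 CPM of NDUFA10 (next 126) and 182 CPM of NDUFS8 (next 135). Heart 10 held 23.9 CPM of NDUFS1, against 11.1 CPM in the next heart. In blood, the heifer of fetus 5 held 23.5 CPM of NDUFA5 (next 17.97), and that of fetus 2 held 45.5 CPM of NDUFS5, the lowest (next 63.1).

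The difference of weight slopes passed the test between heart and liver for NDUFC2 (0.94 per 0.1 g on the log2 scale), NDUFB11 (0.44), NDUFA12 (0.43) and NDUFB9 (0.26).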

How the results depend on the processing

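Of 474 recomputed counts of members, 414 stayed within 1.5 times the reported count. With a log2 fold change above 1 required, 18 members exceeded both other organs in the heart, 0 in the libraries labelled gonads and 0 in the liver. With library totals, 3 were higher in the libraries labelled gonads and 0 in the liver, 0 were lower in heart than in liver, 21 were higher and 3 lower in heart than in the libraries labelled gonads, and 18 were higher and 8 lower in those than in the liver; 0 rose with weight in the heart. There NDUFV3 (−0.82) and NDUFS4 (−0.65) reversed between heart and the libraries labelled gonads, and the heart slope of NDUFA10 became 0.050. Without the 4 matched libraries, 0 members were higher in the libraries labelled gonads, 0 lower in heart than there, 0 rose in the heart and 0 differed by transfer group in the liver; the spline gave 2 members past the adjustment in the libraries labelled gonads, and in the liver 5 with an unadjusted p under 0.05 and 0 past the adjustment; slopes differed in 1 member between heart and liver and 0 between heart and blood. With transfer group as a covariate 0 rose in the heart, and slopes reversed for NDUFA10 in the heart (0.026), NDUFB8 in the libraries labelled gonads (0.0093), NDUFC2 (0.63) and NDUFA3 (0.082) in the liver and NDUFA5 in blood (0.020). DESeq2 called 1 falling member in the liver and, by transfer group, 12 higher and 2 lower in the heart and 3 higher in the libraries labelled gonads. A spline with 2 degrees of freedom gave 6 members with an unadjusted p under 0.05 and 0 past the adjustment in the liver and 3 in blood, and RLE scaling 0 in blood. Slopes differed between heart and liver in 3 members without mitochondrially encoded genes and in 3 with TMM within tissues, and between heart and blood in 0 with both. Between heart and liver these fits called 1391 of all 13427 and 1394 of all 13443 genes. With the fetus as a replicate block, 29 members exceeded both other organs in the heart, 5 slopes differed between heart and liver and 0 between heart and blood, and the block changed no other count by over 1.5 times. The causes of these changes were not tested.

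Leaving out 1 fetus at a time gave 0 to 1 members higher in the libraries labelled gonads than in both others and 0 to 1 lower in heart than there. It gave 0 to 15 rising and 0 to 3 falling members in the heart. By transfer group it gave 0 to 11 higher and 0 to 3 lower members in the heart (all of these without fetus 3), 0 to 2 higher in the libraries labelled gonads (2 without fetus 9) and 0 to 1 lower in the liver. In the heart without fetus 3, 2846 of all 15907 genes also passed the adjustment by transfer group. NDUFS6 ran from −0.24 to 0.019 between heart and liver (reversed without fetus 10), and the slope of NDUFA8 in the libraries labelled gonads from −0.061 to 0.026. The heart trend rests on 9 libraries. NDUFA4L2 rests on few counts outside the heart, and why NDUFA1 was at 0 was not tested.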
